A study of Mus musculus with 8 samples.

Results

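Naive pluripotency genes are the genes that mark and sustain the ground state of mouse embryonic stem cells. They were followed here in embryoid bodies, the cell aggregates that form when stem cells differentiate in suspension, at day 5 of differentiation, when most cells have left that state. The set held 8 of the 27998 gene rows of the count tables: Zfp42, Dppa3, Dppa5a, Esrrb, Klf2, Klf4, Klf5 and Tfcp2l1, chosen by name. In each library the cells with 5 or more unique molecular identifiers (UMIs, the count of distinct captured RNA molecules) of Dppa5a were set apart from all others. They numbered 31 of 3197 kept cells in the Tet triple knockout (TKO) library and 32 of 4392 kept cells in the wild-type (WT) library, and are called Dppa5a cells below.

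The study asked how loss of the Tet enzymes alters the differentiation of mouse embryonic stem cells toward the heart lineage. Single-cell RNA was read once per genotype, in 1 TKO and 1 WT library at day 5, and both are labelled as embryonic stem cells with no treatment. The cells are E14-derived and carry an EmGFP reporter of Nkx2-5, a cardiac transcription factor gene. They had been grown on mitotically inactivated mouse embryonic fibroblast feeders with LIF and serum, and then formed aggregates in hanging drops without LIF for 2 days followed by 3 days in suspension. The 6 WT 5-hydroxymethylcytosine profiles of the series, from days 0, 2 and 5, were not used here. With 1 library per genotype no difference between genotypes has a replicate check, and cells of 1 library are not replicates, so no test was made and genotype cannot be told apart from library. All intervals below are 95% intervals that cover counting error only: exact Poisson for levels, exact binomial (Clopper-Pearson) for shares and for ratios of counts.

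Mouse embryonic stem cells keep the naive state through a network of transcription factors held up by LIF signalling through Stat3. Klf4, Esrrb and Tfcp2l1 are factors of that network, and Klf2 and Klf5 are Klf proteins that overlap with Klf4 in function. Zfp42 (Rex1), Dppa3 (Stella) and Dppa5a (Esg1) are widely used markers of the state. On differentiation these genes are normally silenced as cells pass through a formative state marked by Pou3f1, Otx2, Fgf5 and Dnmt3b, while Pou5f1 stays on for longer. Primordial germ cells, which also arise at the time of early differentiation, turn several naive genes back on. The Tet enzymes oxidise 5-methylcytosine at CpG dinucleotides.

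The kept cells held 33503021 UMIs in the TKO library and 37529180 UMIs in the WT library, with medians of 9679 and 7849.5 UMIs per cell. A lower limit of 500 genes and 1000 UMIs, and an upper limit of 15% mitochondrial UMIs, had removed 26 TKO cells and 3 WT cells. The kit is not given in the labels, and the deposited whole-number counts are taken as UMIs. The column headers of both tables shared 21 cell barcodes. Reads of the knocked-out genes were still counted in the TKO library, with 764 UMIs of Tet1, 154 of Tet2 and 680 of Tet3, against 463, 256 and 1095 in the WT library. Which part of each Tet gene was deleted is not given in the labels, and reads outside a deleted part do not check the genotype. Dppa5a and Dppa3 have processed pseudogenes in the mouse genome, and how reads shared with such copies were counted is not given in the sources used here.

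Promoter windows of 300 bases, from 250 before to 50 after the annotated start, were available from RefSeq (GRCm38.p6) for 5 of the 8 genes, namely Zfp42, Esrrb, Klf2, Klf4 and Tfcp2l1. The 4 sequences that follow are shown because the density of CpG, the dinucleotide at which Tet enzymes oxidise 5-methylcytosine, differed widely among them. Each is printed 5′ to 3′ on the strand of its gene, in lower case, with every CpG in capitals. Zfp42 (chr8:43306960-43307259, minus strand) and the first of the Esrrb starts (chr12:86360867-86361166, plus strand) come before Klf2 (chr8:72318812-72319111, plus strand) and Klf4 (chr4:55532426-55532725, minus strand).
Zfp42: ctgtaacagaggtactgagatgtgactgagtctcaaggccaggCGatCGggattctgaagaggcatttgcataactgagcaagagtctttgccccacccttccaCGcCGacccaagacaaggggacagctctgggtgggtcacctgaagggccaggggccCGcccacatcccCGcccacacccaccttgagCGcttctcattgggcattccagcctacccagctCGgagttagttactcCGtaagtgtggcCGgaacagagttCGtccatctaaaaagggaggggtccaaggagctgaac
Esrrb: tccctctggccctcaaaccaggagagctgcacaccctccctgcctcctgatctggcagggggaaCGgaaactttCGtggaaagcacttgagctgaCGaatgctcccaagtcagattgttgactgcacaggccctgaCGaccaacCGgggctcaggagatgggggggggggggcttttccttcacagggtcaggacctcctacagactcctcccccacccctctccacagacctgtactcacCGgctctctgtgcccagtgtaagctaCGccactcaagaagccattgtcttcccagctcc
Klf2: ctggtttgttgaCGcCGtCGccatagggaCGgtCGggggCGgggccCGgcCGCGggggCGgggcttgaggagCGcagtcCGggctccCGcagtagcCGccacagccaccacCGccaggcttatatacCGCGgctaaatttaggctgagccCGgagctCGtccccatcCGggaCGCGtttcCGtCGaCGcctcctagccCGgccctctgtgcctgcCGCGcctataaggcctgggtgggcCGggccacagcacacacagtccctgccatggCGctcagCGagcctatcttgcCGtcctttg
Klf4: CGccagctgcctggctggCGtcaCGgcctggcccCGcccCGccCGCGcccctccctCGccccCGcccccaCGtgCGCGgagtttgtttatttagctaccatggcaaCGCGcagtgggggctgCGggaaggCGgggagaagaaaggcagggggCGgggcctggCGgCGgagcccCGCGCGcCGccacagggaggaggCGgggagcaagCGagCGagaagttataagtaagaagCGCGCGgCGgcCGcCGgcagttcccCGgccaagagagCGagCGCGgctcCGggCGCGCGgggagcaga
The Zfp42 window held 11 CpGs and each of the 2 Esrrb windows held 7, against a median of 7 over all 32851 RefSeq windows. The Klf2 window held 32, more than in 90.5% of windows, and the Klf4 window held 40, more than in 96.1%. Tfcp2l1 (chr1:118627695-118627994, plus strand) lay between them with 21. After the sequences had been read, 3 short motifs were searched on both strands. The octamer ATTTGCAT, the letters bound by Pou5f1-type factors, stood at position 65 of the Zfp42 window, counted from its 5′ end, and in 1.74% of all windows. The Klf-type box CCACACCC stood at position 176 of that window and in 3.56% of all windows. Neither was found in the windows of the other 4 genes, and TCAAGGTCA, a site of the Esrrb type, was in none of the 6 windows and in 0.423% of all windows. A match of letters is a description of the sequence, not a binding site.

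The Dppa5a values chose the cells and are given as a description. Dppa5a encodes a KH-domain RNA-binding protein of naive cells and early embryos. The Dppa5a cells made up 0.970% of TKO cells (0.660% to 1.37%) and 0.729% of WT cells (0.499% to 1.03%), shares whose intervals overlap. In the TKO library they held 1593 of 1931 Dppa5a UMIs (82.5%), and in the WT library 1526 of 1575 (96.9%). A TKO Dppa5a cell held 5 to 235 Dppa5a UMIs with a median of 23, and a WT one 6 to 160 with a median of 34.5. Just inside the threshold stood 2 TKO cells with 5 UMIs and 1 WT cell with 6; just outside stood 4 TKO cells and 2 WT cells with 4 UMIs.

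The libraries differed below the threshold. Cells with 1 to 4 Dppa5a UMIs numbered 255 in the TKO library (7.98%, 7.06% to 8.97%) and 39 in the WT library (0.888%, 0.632% to 1.21%). After every cell was thinned to 4000 UMIs, which left out 190 TKO and 373 WT cells of lower depth, 3.76% of the TKO cells outside the Dppa5a cells still held the RNA, against 0.451% of WT cells. Among cell types not known to express the gene, a Dppa5a UMI was found in 1 of 71 TKO endothelial-like cells (1.41%, 0.0357% to 7.60%, median 11544 UMIs) and 20 of 740 TKO cardiomyocyte-like cells (2.70%, 1.66% to 4.14%, median 8349 UMIs). In the WT library it was found in 2 of 190 endothelial-like cells (1.05%, 0.128% to 3.75%, median 7175 UMIs) and 5 of 426 blood-like cells (1.17%, 0.382% to 2.72%). The TKO share was 7.00% in definitive endoderm-like cells (75 of 1071) and 41.0% in an unnamed cluster described below (123 of 300). The WT share over all cells outside the Dppa5a cells, 0.894%, was no higher than in its endothelial-like cells, where 2 cells held the RNA. Pou5f1 in the WT library stood at 1.55 CPM in cells with 0 Dppa5a UMIs (1.17 to 2.01). In cells with 1 it stood at 14.6 CPM (5 UMIs in 2 cells, 4.74 to 34.1). The 3 WT cells with 3 to 4 Dppa5a UMIs held it at 141 CPM, on 6 UMIs. The part of free RNA in this WT share, and in the TKO share outside the Dppa5a cells, 8.05%, was not tested.

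**Figure D1:**
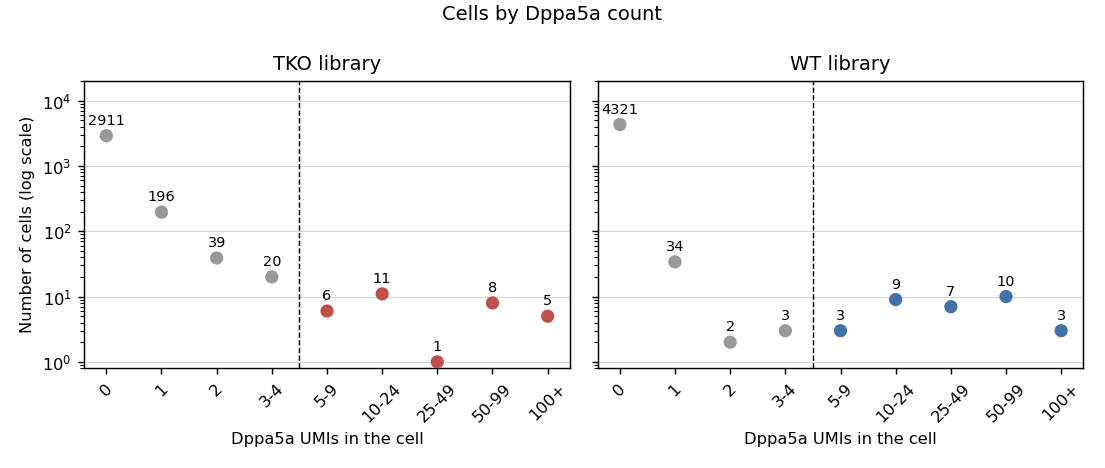
Number of cells (log axis) by the number of Dppa5a UMIs in the cell, TKO left and WT right. In both libraries the counts run on without a clear gap to cells with 25 or more UMIs (14 TKO and 20 WT cells), and the TKO library also holds 196 cells with 1 UMI, against 34 in the WT library.

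The Dppa5a cells were deeper than the others in the TKO library, with a median of 15343 UMIs per cell against 9650 in the remaining cells, and less so in the WT library, with 8947.5 against 7840.5. Ribosomal protein genes took 36.5% of their UMIs in the TKO library and 40.9% in the WT library, against 30.2% and 31.2% in the remaining cells. The part of depth and of this share in the ratios that follow was not tested, and levels are given as CPM, the UMIs of a gene summed over cells and scaled by all UMIs of those cells. CPM corrects for depth and not for gene length, and is compared here between cells and not between genes.

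Zfp42, Dppa3, Esrrb, Tfcp2l1 and Klf2 were higher in Dppa5a cells than in the remaining cells of both libraries, by ratios of 5.57 to 266 in TKO and 12.4 to 2489 in WT. Klf5 and, by less, Klf4 were higher in the WT Dppa5a cells, and in TKO neither differed from the rest beyond its interval. Among all genes with 10 or more UMIs, 11.4% were 2-fold or more higher in the TKO Dppa5a cells and 13.2% in the WT ones; 15.1% and 13.7% were as much lower. Among the 7 genes other than Dppa5a, 5 of 7 passed 2-fold higher in the TKO library and 5 of 6 in the WT library, where Esrrb had under 10 UMIs in all, and none passed 2-fold lower. WT Dppa3 reached 10 UMIs only through the Dppa5a cells, with 63 UMIs there and 3 in the rest, and could hardly come out lower. The 8 genes were also chosen with earlier results of these data known, so these shares are descriptions. By the interval of the ratio, 5 of 7 lay above 1 in TKO and 7 of 7 in WT, where 9.31% and 8.09% of all genes did, and 0 lay below 1, where 13.6% and 10.6% did. The 7 of 7 include Esrrb, which had 9 UMIs in the WT library and is under the minimum used for all genes.

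Zfp42, a zinc finger protein whose loss of expression marks the exit from the naive state, had 157 UMIs in TKO Dppa5a cells, a level of 338 CPM (287 to 395). The remaining TKO cells, 3166 in number, held 131 UMIs, or 3.97 CPM. In the WT library the values were 130 UMIs and 414 CPM (346 to 492) in Dppa5a cells, and 34 UMIs and 0.914 CPM in the rest. The level was therefore 85.2 times higher in Dppa5a cells of the TKO library (67.1 to 108) and 453 times higher in those of the WT library (309 to 682). Zfp42 RNA was found in 22 of 31 TKO Dppa5a cells (71.0%) and 27 of 32 WT ones (84.4%), against 3.79% and 0.780% of the remaining cells. At 4000 UMIs per cell it was found in 16 of 31 (51.6%) and 19 of 29 (65.5%), against 1.75% and 0.426% of the rest. None of the 71 TKO and 190 WT endothelial-like cells held a Zfp42 UMI, and 3 counts of the cells would be a share of 4.23% and 1.58% with a UMI. Every cell with 3 or more Zfp42 UMIs, 15 in each library, was a Dppa5a cell.

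Next to Dppa5a itself, Dppa3 had the largest share of its UMIs in these cells among the 8 genes. It encodes a maternal and germ-line protein that guards DNA methylation in the early embryo. The level was 185 CPM in TKO Dppa5a cells (86 UMIs in 14 cells, 148 to 229) and 201 CPM in WT Dppa5a cells (63 UMIs in 17 cells, 154 to 257). In the remaining cells it was 0.696 CPM in the TKO library (23 UMIs) and 0.0806 CPM in the WT library (3 UMIs). Of all Dppa3 UMIs, 78.9% in the TKO library and 95.5% in the WT library lay in Dppa5a cells. The ratio was 266 in the TKO library (166 to 441) and 2489 in the WT library (814 to 12392). The remaining TKO cells owed 15 of their 23 UMIs to 1 cell with 0 to 4 Dppa5a UMIs that clustered with the Dppa5a cells.

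Esrrb, an orphan nuclear receptor that carries the naive network, and Tfcp2l1, a grainyhead-family factor downstream of LIF, were sparse. Esrrb stood at 21.5 CPM in TKO Dppa5a cells (10 UMIs, 10.3 to 39.6) and 19.11 CPM in WT ones (6 UMIs, 7.01 to 41.6), against 0.363 and 0.0806 CPM in the rest. Tfcp2l1 stood at 34.4 CPM in TKO Dppa5a cells (16 UMIs, 19.7 to 55.9) and 19.11 CPM in WT ones (6 UMIs), against 0.575 and 1.53 CPM in the rest. The ratio of Dppa5a cells to the rest was 59.3 in the TKO library and 237 in the WT library for Esrrb, and 59.9 (28.8 to 123) and 12.5 (4.40 to 28.9) for Tfcp2l1. All 6 TKO and 5 WT Dppa5a cells with Esrrb, and all 10 TKO and 5 WT ones with Tfcp2l1, also held Zfp42 RNA.

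The 3 Klf genes, all zinc finger factors that bind GC-rich boxes, were not restricted to Dppa5a cells. Klf2, which in the embryo also acts in vessels and blood, stood at 325 CPM in TKO Dppa5a cells (151 UMIs) and 417 CPM in WT ones (131 UMIs), against 58.3 and 33.7 CPM in the rest. Its ratio was 5.57 in the TKO library (4.69 to 6.58) and 12.4 in the WT library (10.3 to 14.8). A single TKO cell held 45 of the 151 UMIs, and without it, an alternative chosen after the data were seen, the TKO ratio was 4.08 (3.32 to 4.96). Only 7.27% of its TKO UMIs and 9.47% of its WT UMIs lay in Dppa5a cells. Klf4, which acts in many epithelia and in stromal cells, stood at 30.1 CPM in TKO Dppa5a cells (14 UMIs, 16.5 to 50.6) and 34.3 CPM in the remaining TKO cells, a ratio of 0.879 (0.479 to 1.48). The WT values were 86.0 CPM in Dppa5a cells (27 UMIs, 56.7 to 125) and 49.6 CPM in the rest, a ratio of 1.73 (1.14 to 2.53). Without the WT Dppa5a cell with most Klf4 the ratio was 1.43 (0.885 to 2.20), an interval that holds 1. Klf5, a factor of naive cells and of epithelia such as gut, had 4 UMIs in TKO Dppa5a cells, or 8.61 CPM (2.35 to 22.0), against 10.4 CPM in the rest. In WT Dppa5a cells it had 27 UMIs in 16 cells, or 86.0 CPM, against 6.93 CPM in the rest, a ratio of 12.4 (8.02 to 18.5).

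**Figure D2:**
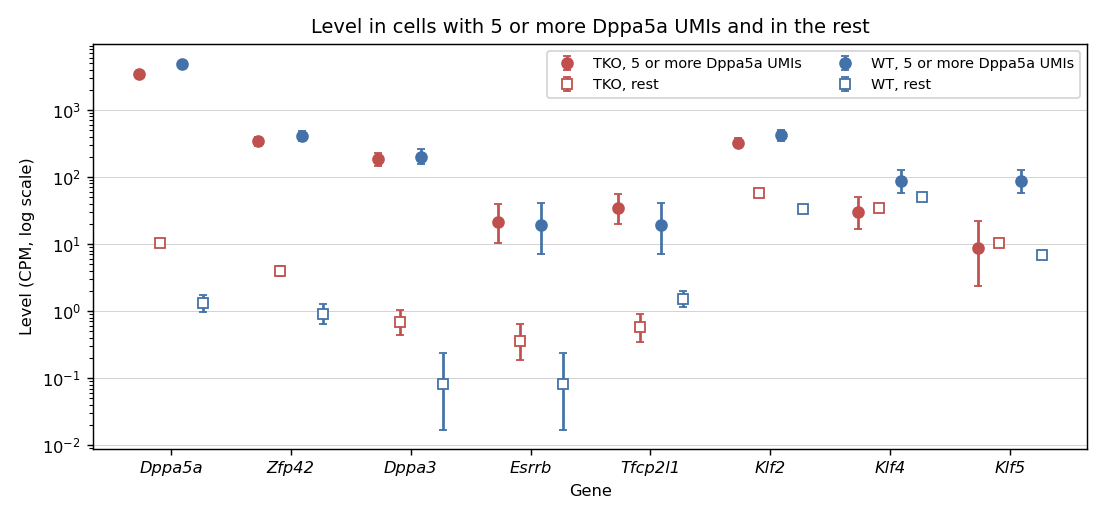
Level of each gene in CPM (log axis) in Dppa5a cells and in the remaining cells of the TKO library, then of the WT library, with 95% Poisson intervals. Zfp42, Dppa3, Esrrb and Tfcp2l1 are more than 10-fold higher in Dppa5a cells of either library, Klf2 is also present in the rest, and Klf4 and Klf5 lie near the level of the rest in TKO Dppa5a cells.

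Most Dppa5a cells held several naive genes at once. At least 3 of the other 7 genes were found in 17 of 31 TKO Dppa5a cells (54.8%, 36.0% to 72.7%) and 24 of 32 WT ones (75.0%, 56.6% to 88.5%), intervals that overlap. The same was true of 38 of the 3166 remaining TKO cells and 22 of the 4360 remaining WT cells. At least 1 of the 7 was found in 27 TKO and 30 WT Dppa5a cells, and at least 5 in 7 and 9. At 4000 UMIs per cell, 6 of 31 TKO Dppa5a cells (19.4%) and 16 of 29 WT ones (55.2%) held at least 3.

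The cells were then placed among 15 clusters made from both libraries together. Clusters were named from marker lists. They were made from these same cells, with the 8 genes among the genes clustered, so levels by cluster are descriptions. Of the WT Dppa5a cells, 31 of 32 fell in the cluster led by Rhox6, Tcl1, Dppa3, Calcoco2, Morc1, Ooep, Tdh and Dppa5a, a naive pluripotent-like cluster of 29 TKO and 38 WT cells. Of the TKO Dppa5a cells, 19 of 31 fell there and 11 fell in an unnamed cluster of 300 TKO cells and 1 WT cell. That cluster was led by Pim2, Mcf2, Slc27a2 and Pou3f1, with Pou5f1 among its 10 leading genes. A cluster almost wholly of 1 library may be that library rather than a cell type. The last TKO Dppa5a cell fell in the extraembryonic endoderm-like cluster.

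The TKO Dppa5a cells thus differed by cluster in their naive gene content. The 19 cells of the naive cluster held 12 to 235 Dppa5a UMIs with a median of 65, 154 Zfp42 UMIs in 19 of 19 cells, and 84 Dppa3 UMIs in 13 cells. They held all 10 Esrrb UMIs and all 16 Tfcp2l1 UMIs of the TKO Dppa5a cells, 146 Klf2 UMIs, and none of Pou3f1. The 11 cells of the unnamed cluster held 5 to 18 Dppa5a UMIs, 3 Zfp42 UMIs, 2 Dppa3 UMIs in 1 cell, 5 Klf2 UMIs and none of Esrrb or Tfcp2l1, although they were deeper (median 18924 against 12983 UMIs per cell). The 11 cells held more of 2 formative genes: Dnmt3b, a de novo DNA methyltransferase, at 176 UMIs in 11 of 11 cells, and Pou3f1, a POU factor of the formative state, at 25 UMIs in 7 cells. The 19 cells held 42 UMIs of Dnmt3b, and 1 of the 16 Fgf5 UMIs of the TKO Dppa5a cells. Otx2 was not divided in this way, with 24 of its 49 UMIs in the 19 cells. Pou5f1, the core pluripotency factor, was found in both, with 201 UMIs in the 19 cells and 220 UMIs in the 11. The 31 WT cells of the naive cluster held 239 UMIs of Pou5f1, 23 of Dnmt3b and 1 of Pou3f1.

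**Figure D3:**
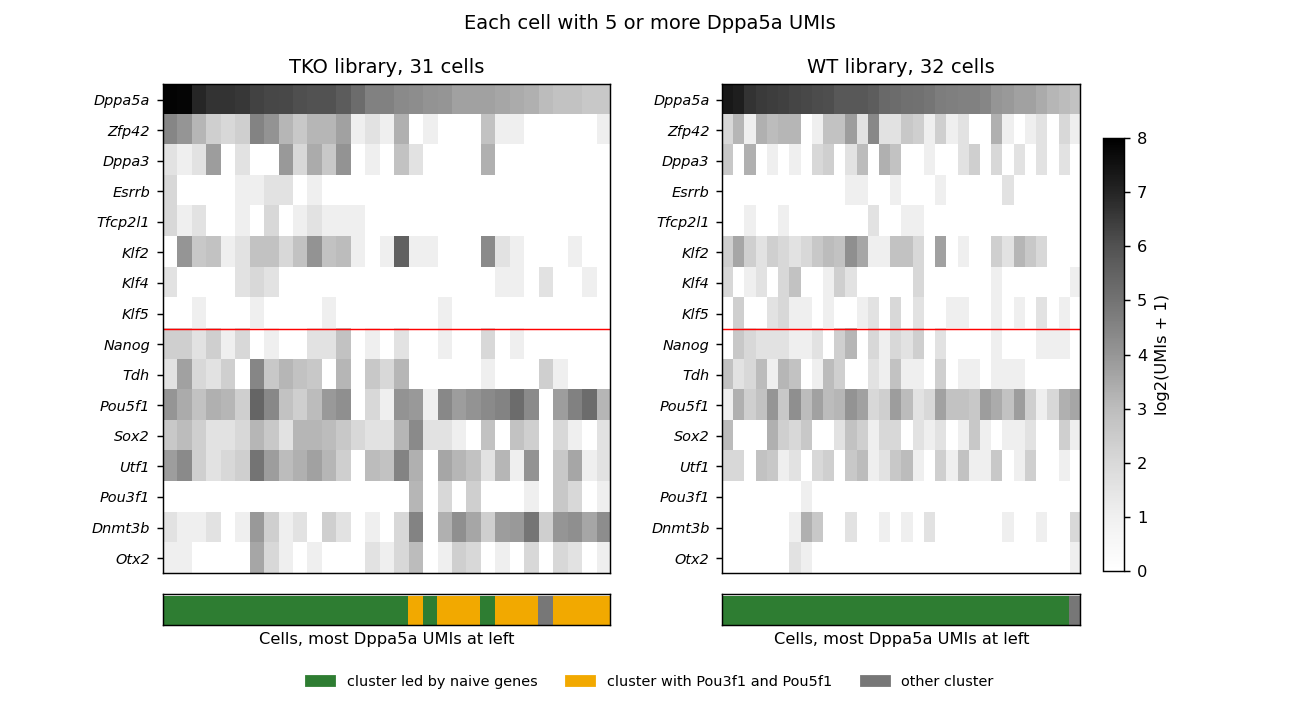
Each column is 1 Dppa5a cell (31 TKO left, 32 WT right) and each row 1 gene, coloured by log2(UMIs + 1); the 8 naive genes stand above the red line and 8 further pluripotency genes below it, and the strip at the foot gives the cluster (green, led by naive genes; orange, with Pou3f1 and Pou5f1; grey, other). The 11 orange TKO cells hold Pou5f1 and Dnmt3b with little Zfp42, and no WT cell is orange.

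Pou5f1, Dnmt3b and Zfp42 differed along the Dppa5a count too. Grouped by Dppa5a UMIs, TKO cells held Pou5f1 at 55.1 CPM with 0 UMIs, 259 with 1, 620 with 2, 901 with 3 to 4, 916 with 5 to 9, 1005 with 10 to 24 and 820 with 25 or more. Zfp42 stood between 3.69 and 13.4 CPM in every group up to 9 UMIs, at 131 CPM at 10 to 24 UMIs and at 688 CPM at 25 or more. Dnmt3b stood at 138 CPM with 0 UMIs, 339 with 1, 803 with 2, 892 with 3 to 4, 869 with 5 to 9, 587 with 10 to 24 and 173 with 25 or more. TKO cells with 2 to 9 Dppa5a UMIs thus held Pou5f1 and Dnmt3b at 620 CPM or more and Zfp42 at 13.4 CPM or less. The 196 cells with 1 UMI lay lower in both, and 81 of them held Pou5f1. The 289 cells of the unnamed cluster that were not Dppa5a cells held 177 Dppa5a UMIs in 112 cells (43.3 CPM) and 24 Zfp42 UMIs in 20 cells (5.87 CPM).

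Over the whole libraries 6 of the 8 genes were higher in the TKO library and 2 lower, in the sense that the interval of the TKO to WT ratio lay wholly above or below 1. By that rule 42.4% of all genes were higher in TKO and 26.6% lower. Past 2-fold stood 1 of 8, Esrrb, at 22 against 9 UMIs and a ratio of 2.74 (1.21 to 6.76); of all genes, 13.7% were 2-fold or more higher in TKO and 12.6% lower, so that 1 higher and 0 lower is near the background. The ratio was 1.97 for Zfp42 (288 against 164 UMIs, 1.62 to 2.40), 1.85 for Dppa3 (109 against 66 UMIs, 1.35 to 2.55), 1.68 for Klf2 (1.57 to 1.80), 1.37 for Dppa5a (57.6 against 42.0 CPM, 1.28 to 1.47) and 1.36 for Klf5 (1.16 to 1.60). Klf4, at 0.686 (0.637 to 0.738), and Tfcp2l1, at 35 against 63 UMIs and 0.622 (0.399 to 0.955), were lower in the TKO library.

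Within Dppa5a cells the order was different: no interval of the 7 genes other than Dppa5a lay above 1, where 8.28% of all genes did, and 3 lay below it, where 6.41% did. Klf5 was lowest in TKO, at 8.61 against 86.0 CPM and a ratio of 0.100 (0.0255 to 0.287). Klf4 stood at 30.1 against 86.0 CPM, a ratio of 0.350 (0.170 to 0.692). These 2 of 7 were the genes 2-fold or more lower, where 8.41% of all genes were; 0 of 7 were 2-fold or more higher, where 11.6% were. Klf2, at 0.779 (0.612 to 0.992), was lower by less. The ratio of Dppa5a, on which the sets were cut, was 0.705 (0.657 to 0.757) and was 1.11 among cells with 25 or more UMIs. The intervals of Zfp42 (0.816, 0.643 to 1.04), Dppa3 (0.922, 0.659 to 1.30), Esrrb (1.13, 0.371 to 3.77) and Tfcp2l1 (1.80, 0.670 to 5.62) held 1.

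These ratios depended on which TKO cells were counted. Restricting to the naive cluster, a choice made after the data were seen, kept 19 of 31 TKO and 31 of 32 WT Dppa5a cells. The 8 genes were among those clustered, so this choice selects on the genes compared, and the ratios are descriptions. The ratio was above 1 for Dppa5a (1.18, 1.10 to 1.27), Klf2 (1.36, 1.07 to 1.73) and Zfp42 (1.46, 1.14 to 1.85). It was also above 1 for Dppa3 (1.63, 1.16 to 2.29) and Tfcp2l1 (3.25, 1.21 to 10.1). Klf4, at 0.422 (0.174 to 0.929), and Klf5, at 0.135 (0.0263 to 0.440), were lower in TKO here too. A single TKO cell held 45 of the 146 TKO Klf2 UMIs. Among cells with 25 or more Dppa5a UMIs the Klf2 ratio was 0.799 (0.591 to 1.08). Klf5 was found in 4 of 31 TKO Dppa5a cells with at most 1 UMI each, and in 16 of 32 WT ones. At 4000 UMIs per cell it was found in 0 of 31 TKO cells, where 3 counts would be a share of 9.68%, and 9 of 29 WT cells (31.0%).

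Markers of other cell types also differed between the Dppa5a cells of the libraries. Of 12 fibroblast and feeder markers, 10 were at 0 in TKO Dppa5a cells (Col1a1, Col1a2, Col3a1, Postn, Lum, Dcn, Tagln, S100a4, Ccl2 and Lox) and 2 in WT Dppa5a cells (Thy1 and Lox). Their summed level was 15.1 CPM in TKO Dppa5a cells and 271 CPM in WT ones, with 0 to 1158 CPM per WT cell, against 27.0 and 1885 CPM in the rest. Of 14 blood markers, 10 were at 0 in TKO Dppa5a cells and 6 in WT ones, at summed levels of 19.4 and 245 CPM, against 274 and 7794 CPM in the rest. Of 12 definitive endoderm markers, 4 were at 0 in TKO Dppa5a cells (Cer1, Foxa1, Gsc and Pyy) and 5 in WT ones (Sox17, Foxa2, Cer1, Foxa1 and Gsc). They summed to 781 CPM in TKO Dppa5a cells and 455 CPM in WT ones, against 1404 and 132 CPM in the rest. Epcam, also on the core pluripotency list, and Trh held 139 and 138 of the 363 TKO UMIs, and 48 and 41 of the 143 WT UMIs. A single TKO cell held 88 of the Trh UMIs. Extraembryonic endoderm markers summed to 529 CPM in TKO Dppa5a cells, with 11962 CPM in 1 of them, and 60.5 CPM in WT ones, against 260 and 910 CPM in the rest. The part of such RNA in the Klf4 and Klf5 differences was not tested.

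Outside the Dppa5a cells, 3 of the 7 genes other than Dppa5a were 2-fold or more higher in the TKO library, where 13.8% of all genes were, and 1 of 7 lower, where 12.6% were. By the interval, 5 of 7 were higher, where 42.4% of all genes were, and 2 of 7 lower, where 26.7% were. The ratio of Dppa5a, held to at most 4 UMIs per cell by the choice of the cells, was 7.77 (5.75 to 10.7). The ratio was 4.34 for Zfp42 (131 against 34 UMIs, 2.96 to 6.53), 4.51 for Esrrb (12 against 3 UMIs, 1.22 to 24.9) and 8.64 for Dppa3 (23 against 3 UMIs, 2.61 to 44.9). Without the cell that held most Dppa3 in each library, an alternative chosen after the data were seen, Dppa3 had 8 against 2 UMIs and a ratio of 4.51 (0.899 to 43.6). Tfcp2l1 was lower in TKO, at 0.375 (0.211 to 0.641), and so was Klf4, at 0.691 (0.641 to 0.745). Klf2 stood at 1.73 (1.61 to 1.86) and Klf5 at 1.49 (1.27 to 1.76). Dppa5a, Zfp42, Esrrb and Dppa3 stood at or below 10.2 CPM in these cells of both libraries.

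**Figure D4:**
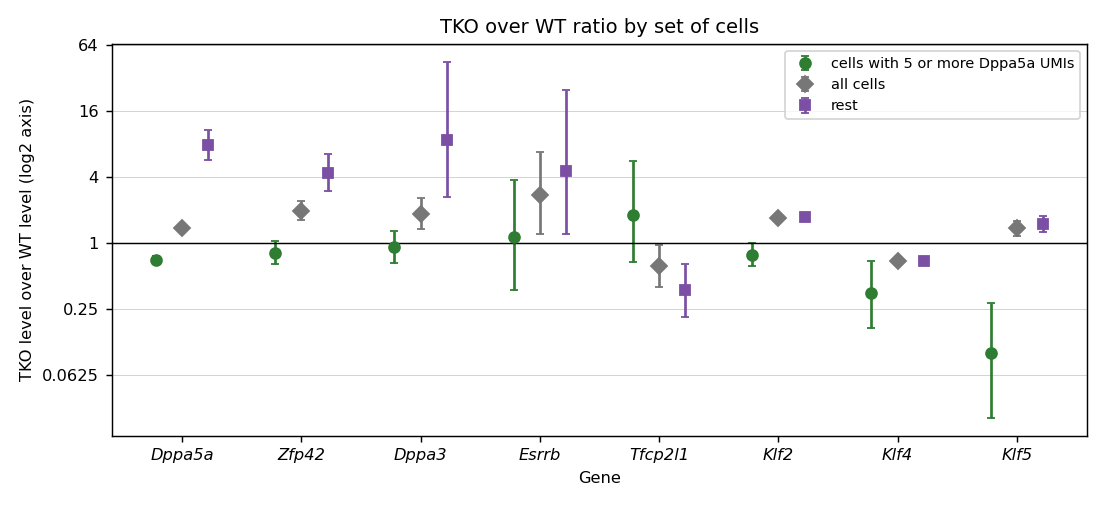
Ratio of the TKO level to the WT level of each gene (log2 axis) with its 95% interval, over Dppa5a cells (green circles), all cells (grey diamonds) and the remaining cells (purple squares). For Zfp42, Dppa3 and Dppa5a the remaining cells lie far above the Dppa5a cells, while Klf4 lies below 1 in each set and Klf5 lies below 1 in Dppa5a cells and above it elsewhere.

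The remaining RNA of these genes lay in particular clusters, and the libraries differed in the cells they held. In TKO cells Dppa5a stood at 4543 CPM in the naive cluster and 66.7 CPM in the unnamed Pou3f1 cluster, where 41.0% of cells held it, and at 7.29 CPM in definitive endoderm-like cells and 1.15 CPM in endothelial-like ones. In WT cells it stood at 4150 CPM in the naive cluster and at or below 3.17 CPM in every other cluster of 20 or more cells. Zfp42 was also highest in the naive cluster, at 481 CPM in TKO and 353 CPM in WT cells. Among clusters with 20 or more TKO cells, its next highest TKO levels were 12.6 CPM in a cluster led by T and Dnajb13 and 6.30 CPM in the unnamed Pou3f1 cluster. It stood at 4.83 CPM in TKO definitive endoderm-like cells. The 36 WT definitive endoderm-like cells held Zfp42 at 6.38 CPM, on few UMIs. In a coarser clustering (resolution 0.4) the matching cluster had 39 WT cells with 2 Zfp42 UMIs, or 5.85 CPM (0.709 to 21.1). The WT level is therefore too uncertain to be compared with that of the 1071 TKO cells. Dppa3 stood at 303 CPM in the TKO and 174 CPM in the WT naive cluster, and Esrrb at 30.6 and 16.3 CPM.

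The other genes were spread over differentiated cells; orders below are over clusters with 20 or more cells of the library. Klf2 was highest in the naive cluster (502 CPM in TKO, 372 CPM in WT) and next in endothelial-like cells (151 CPM in TKO, 279 CPM in WT). Klf4 in TKO cells was highest in cardiomyocyte-like (50.3 CPM) and endothelial-like cells (46.9 CPM), with 30.6 CPM in the naive cluster. The 16 TKO extraembryonic endoderm-like cells, under that size, held Klf4 at 155 CPM (27 UMIs in 10 cells) and Klf5 at 92.0 CPM (16 UMIs in 5 cells). In WT cells Klf4 stood at 84.1 CPM in the naive cluster and 71.3 CPM in extraembryonic endoderm-like cells. Klf5 in TKO cells was highest in definitive endoderm-like cells, at 23.5 CPM and 277 of 346 UMIs, just above the 18.4 CPM of the naive cluster. In WT cells it was highest in the naive cluster, at 78.7 CPM, with 19.15 CPM in definitive endoderm-like cells. Tfcp2l1 had 42 of its 63 WT UMIs in extraembryonic endoderm-like cells, at 25.2 CPM against 21.7 CPM in the WT naive cluster. That type held 16 TKO cells against 190 WT cells.

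**Figure D5:**
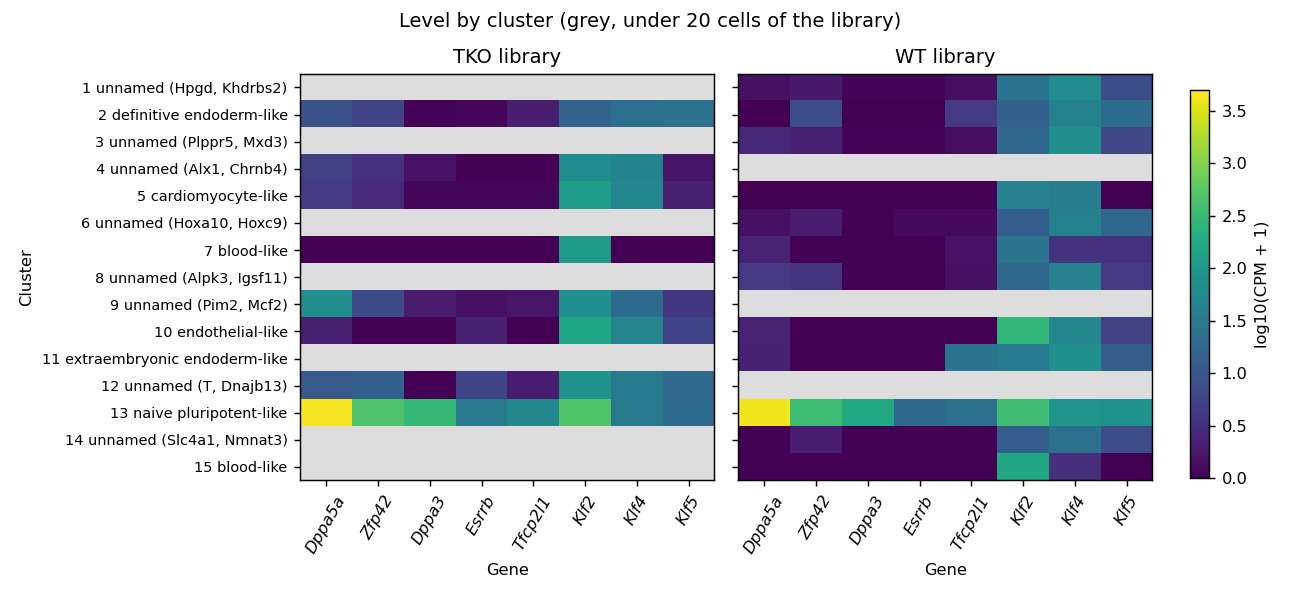
Level of each gene, as log10(CPM + 1), in the 15 clusters of the TKO library (left) and the WT library (right); clusters with under 20 cells of a library are grey. All 8 genes are present in the naive pluripotent-like cluster of both libraries, while Klf2, Klf4 and Klf5 are also present in differentiated clusters.

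Further pluripotency genes were counted in the same cells, list by list. Of 28 other naive genes, 23 had 10 or more UMIs in the TKO library and 24 in the WT library. Pou5f1, Sox2, Nanog, Sall4, Dppa2 and Dppa4 are counted both here and among the core pluripotency genes below, so these lists overlap. In Dppa5a cells, 18 of 23 were 2-fold or more higher and 1 lower in the TKO library, and 22 of 24 higher and 0 lower in the WT library, with median log2 ratios of 3.57 and 6.82 against 0.00 over all genes. The highest with 20 or more UMIs were Tdh, the threonine dehydrogenase of stem cell metabolism (536-fold in TKO, 1101-fold in WT), and Ooep, an oocyte and early embryo protein (483-fold and 593-fold). WT Tdh had 65 UMIs in Dppa5a cells and 6 in cells with 0 Dppa5a UMIs, so its ratio rests on few UMIs. Trim28, a corepressor, was near 1 in both (1.02 and 1.35). Tbx3, a T-box factor of the naive network, was lower in TKO Dppa5a cells (0.335, 4 UMIs in 2 cells) and higher in WT ones (2.38, 19 UMIs in 6 cells).

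The counts that follow use the same rule, by which 11.4% of all genes were higher and 15.1% lower in TKO Dppa5a cells, and 13.2% and 13.7% in WT ones. They share the limit of the minimum and are descriptions. Core pluripotency genes were higher in 9 of 14 in the TKO library and 12 of 14 in the WT library, and lower in 0. Nanog, the homeodomain factor of the network, was 41.1-fold higher in TKO Dppa5a cells (26.7 to 62.6) and 830-fold higher in WT ones (374 to 2171). WT Nanog too reached the minimum only through the Dppa5a cells, with 49 UMIs there and 7 in cells with 0 Dppa5a UMIs. Utf1, a chromatin protein of pluripotent cells, was 22.0-fold and 780-fold higher. Lin28a, an RNA-binding protein also present in early progenitors, was not (0.753 and 0.629). Formative and primed genes were higher in 6 of 15 in the TKO library and 7 of 13 in the WT library, and 1 was lower in each. Primordial germ cell genes were higher in 6 of 14 and 11 of 13, with 1 and 0 lower. Among these, Rhox9, a homeobox gene of the reproductive lineage, was 86.9-fold and 82.1-fold higher.

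The germ cell markers Nanos3 and Ddx4 were at 0 in TKO Dppa5a cells, and Ddx4 was at 0 in WT ones, where Nanos3 had 7 UMIs. The summed primordial germ cell markers ranged from 0 to 1410 CPM per cell in TKO Dppa5a cells and from 0 to 3180 CPM in WT ones. Genes of the 2-cell-like state had 0 UMIs in Dppa5a cells of both libraries, at the depth of 464671 UMIs in the TKO cells and 314005 UMIs in the WT cells. A count of 3 would be 6.46 CPM in the TKO set and 9.55 CPM in the WT set.

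LIF and Stat3 pathway genes were higher in 2 of 12 in each library and lower in 5 of 12 in TKO and 3 of 12 in WT. The counts of higher genes are near the background, and those of lower genes stand above 15.1% and 13.7%. Il6st, the gp130 receptor subunit, was 2.13-fold higher in TKO Dppa5a cells. Socs3, the feedback inhibitor, was at 0.155 and 0.215 of the rest, on only 1 UMI in TKO and 2 UMIs in WT Dppa5a cells. The Klf family list includes Klf2, Klf4 and Klf5, already reported above. Of its genes, 5 of 16 were higher and 1 lower in the TKO library, and 5 of 15 higher and 3 lower in the WT library. Klf15 was 5.47-fold and 16.9-fold higher (9 and 8 UMIs in Dppa5a cells), and Klf7 was at 0.486 and 0.290 (11 and 2 UMIs). Klf1, the erythroid Klf factor, had 0 UMIs in WT Dppa5a cells against 1129 in the rest, at least 3.18-fold lower. Tet and DNA methylation genes were higher in 2 of 12 and 4 of 12 and lower in 2 and 0, near the background in TKO. Dnmt3b was 2.76-fold and 3.74-fold higher, and Tet3 was at 0.210 and 0.544, on 2 UMIs in TKO and 5 UMIs in WT Dppa5a cells. Of the 12 G2/M genes, 0 were higher and 0 lower in TKO, and 1 was higher and 1 lower in WT.

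Set against each other, the TKO and WT Dppa5a cells differed in formative genes. Of 10 with 10 or more UMIs, 4 were 2-fold or more higher in TKO and 0 lower; of all genes, 11.6% were higher and 8.41% lower. Pou3f1 had 25 against 1 UMIs (ratio 16.9, 2.77 to 694), Otx2, a homeodomain factor of formative cells, 49 against 4 (8.28), and Dnmt3b 222 against 26 (5.77, 3.83 to 9.03). Most of the Pou3f1 and Dnmt3b UMIs of the TKO set lay in the 11 cells of the unnamed cluster. Otx2 was also higher among naive cluster cells alone, at 9.75 (2.96 to 50.6). A single TKO cell held 11 of those 24 UMIs, and without it the ratio was 6.00 (1.65 to 32.8). Of 22 other naive genes, 0 were higher and 6 lower, with a median log2 ratio of -0.51 against 0.10 over all genes. They included Calcoco2, an autophagy receptor (0.0699), Tbx3 (0.142) and Tcl1, an Akt coactivator (5 against 17 UMIs, 0.199). Nanog had 37 against 49 UMIs, a ratio of 0.510 (0.324 to 0.798), and 0.871 among naive cluster cells alone. The TKO set compared here includes the 11 cells of the unnamed cluster. Among naive cluster cells alone, a description as above, Tdh (1.74, 1.26 to 2.43) and Sox2 (1.62, 1.17 to 2.26) were higher in TKO. There the intervals of Nanog, Tcl1 (0.359, 0.103 to 1.01), Pou5f1, Dnmt3l and Prdm14 held 1. Dnd1, an RNA-binding protein of germ cells, had 4 against 26 UMIs (0.104), and Rhox5, a homeobox gene, 125 against 7 (12.1, 5.69 to 30.6). Of the other lists, core pluripotency genes were higher in 2 and lower in 1 of 14, primordial germ cell genes in 1 and 3 of 9, LIF and Stat3 pathway genes in 0 and 1 of 7, Klf genes in 2 and 3 of 11, Tet and DNA methylation genes in 2 and 0 of 10 and G2/M genes in 2 and 0 of 12. Tet1 itself had 14 against 16 UMIs (0.591, 0.267 to 1.29).

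The genes whose pattern was most like the 8 were ranked by the smaller of their 2 log2 ratios of Dppa5a cells to the rest, among genes with 20 or more UMIs in Dppa5a cells of each library. Tdh (9.02) and Ooep (8.80) came first, ahead of Dppa3 (8.03) and Zfp42 (6.41), and were followed by Rhox9 (6.37), Nanog (5.37) and Utf1 (4.46). Apoc1, an apolipoprotein (4.37), Mylpf, a fast muscle myosin light chain (4.21), and the metallothioneins Mt2 (4.17) and Mt1 (3.69) came next, and Mybl2, L1td1 and Chchd10 stood below them. The metallothioneins were abundant: Mt1 had 532 UMIs in TKO Dppa5a cells and 247 in WT ones. At the other end stood genes of blood, Hba-a1, Hba-x and Hbb-bh1, with Hsd11b2 and Eno3. Likeness was taken over 2 libraries and cell sets chosen by Dppa5a, and is a description.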

How the data were processed

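The authors deposited 1 table of raw UMI counts per gene and cell for each single-cell library (TKO and WT, day 5). The submitters' processing notes name mm10 and Seurat 3 among their tools, and how reads were aligned and counted is not given in the sources used here. The TKO header names 3224 barcodes above 3223 columns of values, so its cells were read by position; row names differed in 116 places and were matched by position. Cells with under 500 genes, under 1000 UMIs or over 15% mitochondrial UMIs were left out. Counts were summed over cells and given as CPM. A gene with 10 or more UMIs over both sets was called at a 2-fold ratio, a count of 0 being put at 3 counts per set of cells. Named genes were the 8 members; up to 3 at either end of each list and the 15 most alike (1 of them is not reported here), with 20 or more UMIs; the 5 lowest of those with 50 CPM or more in the rest; and 6 at either end between genotypes. Clusters came from 2000 variable genes, 30 components, 15 neighbours and Leiden resolution 0.8 (igraph 0.11.9), and doublets were not called. The 8 genes, the Dppa5a threshold and the lists were chosen with earlier results of these data known. Alternatives were other scalings, cell filters, Dppa5a thresholds, thinning to 4000 UMIs, gene minimums and resolutions. The calculation of the ratios was tested on simulated Poisson counts. These lack the spread between cells, so the test does not check the intervals where a few cells hold most UMIs. Python 3.11.15, numpy 2.4.6, scipy 1.17.1, pandas 2.3.3 and scikit-learn 1.9.0 were used.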

Additional observations from a re-analysis of the deposited data

Results flagged for a closer look

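For 2 genes the direction between Dppa5a cells and the remaining cells was opposite in the 2 libraries. Klf4 was at 0.879 times the level of the rest in TKO Dppa5a cells and 1.73 times in WT ones, and Klf5 at 0.832 and 12.4 times. For 6 genes the direction between TKO and WT was opposite in Dppa5a cells and in the remaining cells. The TKO to WT ratio in Dppa5a cells and then in the rest was 0.816 and 4.34 for Zfp42, 0.922 and 8.64 for Dppa3, 0.705 and 7.77 for Dppa5a, 0.779 and 1.73 for Klf2, 0.100 and 1.49 for Klf5, and 1.80 and 0.375 for Tfcp2l1. Dppa5a is given as a description, since the cells were cut on it. With 1 library per genotype none of these differences was tested, and the intervals of 5 of the 16 ratios hold 1, those of Klf4 and Klf5 in TKO and of Zfp42, Dppa3 and Tfcp2l1 in Dppa5a cells.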

How the results depend on the processing

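No paired analysis was possible because each group has 1 library, and for the same reason no replicate could be left out. Of the counts and shares that answer a comparison, 114 alternatives kept the value within its limits and 24 moved it; single ratios kept it in 269, moved in 56 and reversed in 3. The reversals were Dppa5a in Dppa5a cells, TKO over WT, at 1.11 with 25 or more Dppa5a UMIs and 1.18 in the naive cluster alone, and Klf2 at 1.36 in the naive cluster alone. That Klf2 value drew 45 of its 146 TKO UMIs from 1 cell. With 25 or more UMIs, 4 genes were higher and 2 lower in TKO, and in the naive cluster alone 5 and 2, against 0 and 4 with Dppa5a counted at 5 or more UMIs. Genes lower in TKO numbered 1 rather than 2 over all cells without the 5% of cells with most UMIs, and 1 rather than 2 in the rest after thinning, where Dppa5a cells were those with 2 or more Dppa5a UMIs left. With 3 or more UMIs, 1 gene was lower in TKO Dppa5a cells than in the rest. The TKO share of Dppa5a cells was 1.60% at 3 or more UMIs, 0.438% at 25 or more and 0.594% in the naive cluster; the WT share was 0.455% at 25 or more. Cells with 3 or more other genes were 33.3%, 92.9% and 78.9% in TKO under these settings and 20.7% among the cells so chosen after thinning, and in WT 90.0% at 25 or more and 51.6% among the cells so chosen. With a minimum of 50 UMIs per gene, other naive genes 2-fold higher numbered 9 in TKO and 9 in WT, LIF pathway genes 1 and 0, Tet and DNA methylation genes 1 in TKO and formative genes 2 in WT, and fewer genes were counted. At resolution 0.4 the naive and the unnamed Pou3f1 clusters merged, and 30 TKO Dppa5a cells shared 1 cluster. Apart from the minimum and the merging, the cause was not tested. Depth limits Esrrb, Tfcp2l1 and Klf5, with 4 to 27 UMIs in Dppa5a cells.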

Other observations

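Some of the widest differences between TKO and WT Dppa5a cells were owed to 1 cell. Ttr (39 against 0 UMIs), Cubn (23 against 0), Ctsh (40 against 1) and Apom (27 against 1), genes of yolk sac endoderm and liver-type cells, were among the 6 highest in TKO. All of their TKO UMIs lay in the 1 Dppa5a cell of the extraembryonic endoderm-like cluster, which held 19813 UMIs, 7 of them of Dppa5a and 0 of Pou5f1. Kif21a, a kinesin, had 24 against 0 UMIs, at least 5.41-fold higher in TKO. At the other end, Dlk1, a Notch-like membrane protein (0 against 37 UMIs, at least 18.3-fold lower), Pmp22 (0 against 32), Ctla2a (0 against 26), Ahnak (0 against 26), Acta2, smooth muscle actin (1 against 34), and Nrp1, a neuropilin (2 against 39), were lower in TKO Dppa5a cells. Doublets were not called, so a mix of 2 cells and 1 cell with both sets of RNA cannot be told apart.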
